A study of Mus musculus with 7 samples.

Results

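Lymph nodes of NOD mice, which develop autoimmune diabetes, were compared with those of NOD.B10 mice, a strain with the NOD background and another major histocompatibility complex (MHC), on the 4 arrays that carry these strains in their titles, of 7 arrays in all. Each array held the node that drains the pancreas (PLN) in the red Cy5 channel and a second node of the same strain in the green Cy3 channel, either the mesenteric node (MLN), which drains the gut, or the inguinal node (ILN), which drains the skin and mammary fat pad. The groups were thus NOD and NOD.B10 females aged 12 weeks, with no treatment in the labels, and each channel held node RNA of a group of 5 mice. The other 3 arrays held BALB/c and FVB nodes and are named only where a gene needs them. Every strain and node pair was hybridised once, so no test of a strain difference was possible, and a gene is called higher or lower where the difference passed 2-fold, 1 on the log2 scale. Whether the PLN pool of a strain was the same on its MLN and its ILN array is not stated by the labels. For NOD.B10 the strain entry of the labels says NOD, while title and source name say NOD.B10, and the title was followed.

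MHC class I molecules show peptides from inside the cell to CD8 T cells, and class II molecules show peptides taken up from outside to CD4 T cells. The class II chains and the class I heavy chains come from a dense gene cluster on chromosome 17. This cluster also holds the TAP peptide transporter and the DM and DO molecules that edit class II loading. Between its class II and D regions lie the class III genes, with complement factors and tumour necrosis factor. NOD mice carry a class II molecule of an unusual haplotype and do not make the E alpha chain, and the MHC is the best-known diabetes locus of the strain. The PLN is the node in which T cells first meet antigens of the pancreas.

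The promoters of MHC genes are shown because the level differences described below fell mostly on class I genes and less on class II genes. They come from RefSeq (GRCm38.p6), which is C57BL/6J sequence, and neither NOD nor NOD.B10 sequence was used here. Each runs over the 250 bases before the gene's start. Capitals mark CTGATTGG (or CCAATCAG on the other strand), the Y box of class II promoters.
H2-Aa, chr17:34287824-34288073, minus strand: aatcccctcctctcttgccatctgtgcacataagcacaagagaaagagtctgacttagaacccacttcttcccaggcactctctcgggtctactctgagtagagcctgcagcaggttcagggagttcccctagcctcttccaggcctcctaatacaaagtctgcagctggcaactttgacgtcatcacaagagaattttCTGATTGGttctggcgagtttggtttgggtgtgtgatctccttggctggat
H2-Eb1, chr17:34305617-34305866, plus strand: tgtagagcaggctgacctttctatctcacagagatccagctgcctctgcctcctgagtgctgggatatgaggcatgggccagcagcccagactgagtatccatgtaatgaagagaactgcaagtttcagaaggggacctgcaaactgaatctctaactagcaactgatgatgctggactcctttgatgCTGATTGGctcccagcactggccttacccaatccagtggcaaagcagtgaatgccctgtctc
In class I promoters the capitals mark TTTCACTTC (or GAAGTGAAA), letters at the core of the interferon response element of these genes. H2-D1 and H2-Q7 also hold CCAATCAG nearer to the start, left in lower case, and it overlaps no capitals.
H2-D1, chr17:35262844-35263093, plus strand: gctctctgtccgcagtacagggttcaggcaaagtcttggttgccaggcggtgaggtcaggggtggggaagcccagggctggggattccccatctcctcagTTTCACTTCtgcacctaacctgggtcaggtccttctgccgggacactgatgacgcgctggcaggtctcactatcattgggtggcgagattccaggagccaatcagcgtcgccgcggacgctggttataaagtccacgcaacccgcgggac
H2-Q7, chr17:35438905-35439154, plus strand: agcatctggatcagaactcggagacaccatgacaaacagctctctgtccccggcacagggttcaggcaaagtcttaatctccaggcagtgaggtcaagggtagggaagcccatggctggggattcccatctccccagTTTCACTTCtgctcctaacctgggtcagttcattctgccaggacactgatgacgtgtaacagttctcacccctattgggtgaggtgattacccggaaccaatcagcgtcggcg
H2-Q10, chr17:35469839-35470088, plus strand: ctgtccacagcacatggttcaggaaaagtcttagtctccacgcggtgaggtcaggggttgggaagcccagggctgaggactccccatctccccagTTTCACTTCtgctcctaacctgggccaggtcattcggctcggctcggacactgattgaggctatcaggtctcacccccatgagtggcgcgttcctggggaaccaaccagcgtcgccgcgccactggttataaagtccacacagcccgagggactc
Of the 12 class II genes listed, 8 had a promoter in the table and 4 of these held the Y box letters, as did 3.83% of all 32851 promoters of the table. Of the 27 class I genes listed, 18 had a promoter and 7 held TTTCACTTC, against 0.402% of all promoters. The match is a description of the reference sequence, and no binding was measured.

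Array quality set limits on what the 4 arrays can show. The share of probes that stood well above background was 46.0% to 59.1% for PLN and 50.8% to 88.9% for the other node, and lower in NOD than in NOD.B10 for both. The NOD MLN array was read on another scanner and day than the other 3, and the NOD.B10 ILN array on another day than the NOD ILN array. Strain can therefore not be told apart from scanner and scan day in the MLN comparison, or from scan day in the ILN comparison. Mean log2 levels over genes correlated best between the NOD ILN array and the NOD.B10 MLN array, which shared scanner and day (r = 0.9882), and at 0.963 to 0.9743 for the other 5 pairs, as a description over genes that are not independent. Within an array the median SD of the log2 ratio over spots of the same probe was 0.058 to 0.132, which covers spotting error and no biological spread. Between the PLN readings of 1 strain on its MLN and ILN arrays, 844 genes (2.92%) passed 2-fold in NOD and 311 (1.07%) in NOD.B10, beside shares of 1.62% to 2.49% between the strains in PLN below. A log2 ratio difference cancels an effect that an array has on both of its channels, whereas a level difference between arrays does not.

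Several probes, MHC probes among them, did not place the array labelled NOD.B10 PLN over ILN with the other NOD.B10 array. D17H6S56E-5, a class III transcript next to Vars in the gene order, had log2 levels of 10.42 (PLN) and 10.22 (MLN) for NOD.B10 on the MLN array. On the NOD arrays it stood at 6.71 and 6.64 (MLN array) and 7.22 and 7.33 (ILN array), and on the array labelled NOD.B10 PLN over ILN at 6.86 and 7.01, with the NOD readings. A second probe of this transcript gave 9.59 and 9.28 on the NOD.B10 MLN array and 6.71 to 6.98 in the other 6 readings. The second probe of H2-Aa, the class II A alpha chain, measured 11.32 and 10.87 on the NOD.B10 MLN array, 9.62 and 9.24 on the array labelled NOD.B10 PLN over ILN, and 8.28 to 9.21 on both NOD arrays. For this probe the array labelled NOD.B10 PLN over ILN was thus above all 4 NOD readings, though nearer to them than to the NOD.B10 MLN array. Tla, a class I thymus leukaemia antigen, went the other way. It was not well above background on the NOD.B10 MLN array (6.30 and 6.23), and measured 7.95 to 8.40 on the NOD arrays and 8.66 and 8.84 on the array labelled NOD.B10 PLN over ILN. On the MLN arrays Tla was thus at least 3.13-fold higher in NOD in PLN and at least 3.62-fold in MLN, against its own level on the NOD.B10 array, which was above the lowest level well above background there. Mela, named as in the files and no MHC gene, stood at 9.45 and 9.81 on the NOD.B10 MLN array and at 6.55 to 6.79 in the other 6 readings, and in PLN of the MLN arrays it was at least 7.22-fold higher in NOD.B10.

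Counted over probes, 31 lay more than 1 from both NOD arrays on the NOD.B10 MLN array, 12 of them in the MHC interval, and on 10 of these 12 the array labelled NOD.B10 PLN over ILN lay nearer to NOD. At a distance of 1.5 the count was 10 probes, 4 in the interval, and all 4 nearer to NOD. Probes outside the interval did the same. Places were set on a scale from 0 at NOD to 1 at the NOD.B10 MLN array. At a distance of 1, the array labelled NOD.B10 PLN over ILN had a median of 0.301 over interval probes and 0.361 over the others. At 1.5 the medians were 0.151 and 0.195. The shift was thus not confined to the interval. The others at 1.5 included Tla and H2-M2, class I genes not counted in the interval, besides Mela and unnamed probes. Whether the shift was particular to the MHC can therefore not be read from these medians. All these probes were chosen for a far reading of the NOD.B10 MLN array. In the reverse direction, 71 probes lay more than 1 from both NOD arrays on the array labelled NOD.B10 PLN over ILN, 3 of them in the interval, and 2 lay more than 1.5 away, 0 in the interval. For the 71, the scale ran from 0 at NOD to 1 at the array labelled NOD.B10 PLN over ILN. On it the NOD.B10 MLN array had a median of 0.633 over the 3 interval probes and 0.214 over the others. Outside the interval, probes chosen for a far reading of either NOD.B10 array thus placed the other one nearer to NOD. Like the second H2-Aa probe, the second probe of H2-T22, a class I gene, lay between. It stood at 8.73 and 8.54 on the NOD.B10 MLN array and at 7.68 and 7.58 on the array labelled NOD.B10 PLN over ILN. The 4 NOD readings of this probe were 6.91 to 6.94. Other MHC probes sided with the title more fully. H2-Q5, a class I gene of the Q region, was at 13.92 and 13.69 on the NOD.B10 MLN array and 14.06 and 13.80 on the array labelled NOD.B10 PLN over ILN, above all 4 NOD readings of 11.94 to 12.81. H2-Q1 measured 11.84 to 12.82 on the NOD.B10 arrays and 10.67 to 11.83 on the NOD arrays, just apart. The arrays are named by their titles below, and results against ILN rest on the array whose MHC readings split in this way. The distances of 1 and 1.5 were chosen after the values were seen, and what split the probes was not tested.

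**Figure D1:**
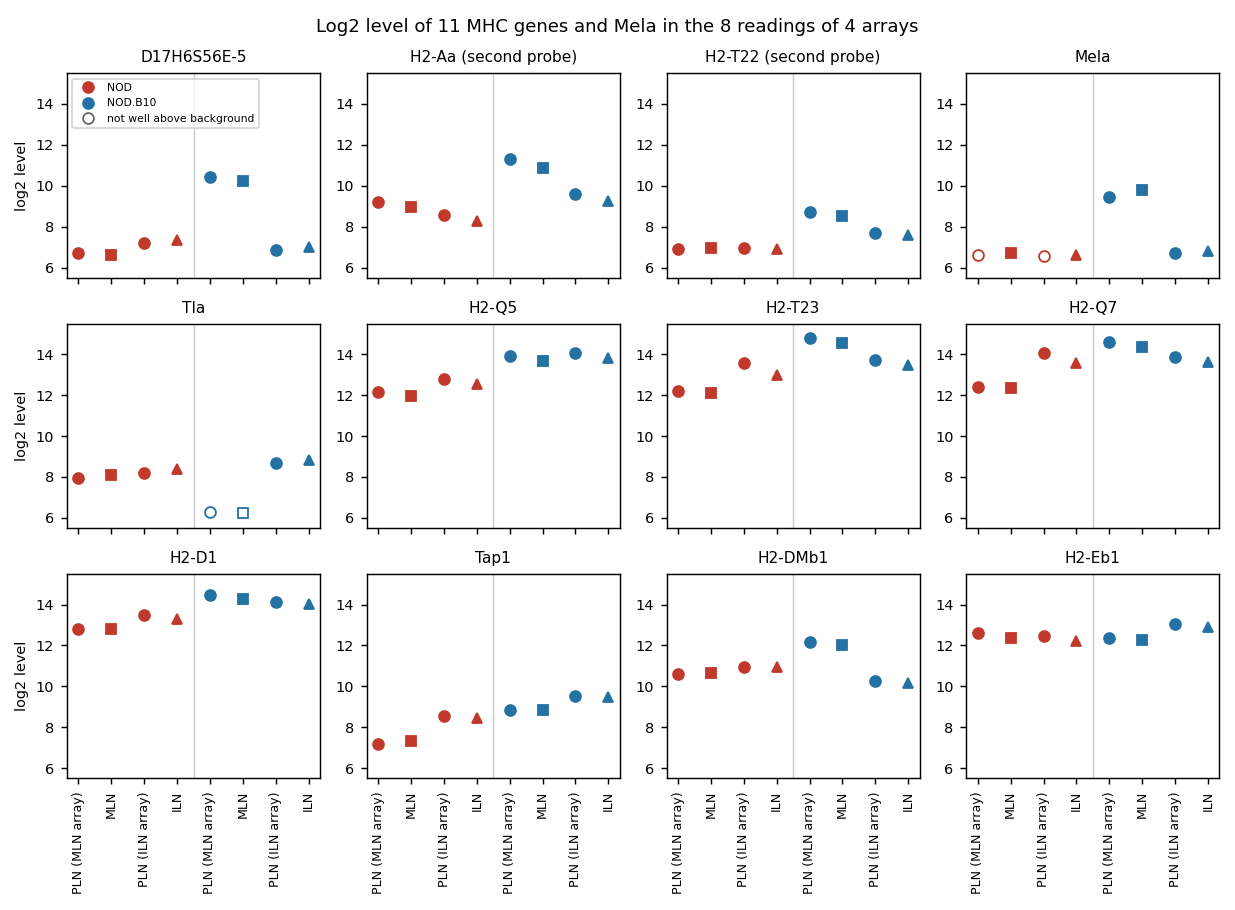
Log2 level (vertical axis) of 11 MHC genes and Mela in the 8 readings of the 4 arrays (horizontal axis), with NOD in red, NOD.B10 in blue, circles for PLN, squares for MLN, triangles for ILN and open symbols for readings not well above background. D17H6S56E-5 was at 10.42 and 10.22 on the NOD.B10 MLN array and at 6.64 to 7.33 elsewhere, while all H2-Q5 readings of NOD.B10 lay above those of NOD.

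Class II genes, each by its brightest probe, showed 1 difference past 2-fold on the MLN arrays, H2-DMb1, and 0 of 10 on the ILN arrays. Of all genes, 2.49% were called in PLN and 1.8% in MLN on the MLN arrays. The shares were 1.62% in PLN and 1.65% in ILN on the ILN arrays. On the MLN arrays the 10 measured members of the class II list had a median level difference (NOD minus NOD.B10) of -0.11 for PLN and 0.10 for MLN. On the ILN arrays it was -0.47 for PLN and -0.49 for ILN. Over all genes these medians were 0.00, 0.01, -0.02 and -0.01. Agilent's processed signals moved the medians of all genes to 0.56, 0.35, 0.11 and 0.21, and relative to these the class II medians were 0.24 and 0.57 on the MLN arrays and -0.01 and -0.15 on the ILN arrays. The sign in PLN on the MLN arrays thus turned with the scaling. H2-Eb1, the E beta chain, lay between 12.24 and 13.05 in all 8 readings, and the order of the strains turned between the arrays, with PLN at 12.61 in NOD and 12.39 in NOD.B10 on the MLN arrays and at 12.48 and 13.05 on the ILN arrays. The brightest probe of H2-Ab1, the A beta chain, stood at 14.17 to 14.99 in NOD and 13.95 to 14.90 in NOD.B10. Its other 3 probes were dimmer, and one of them stood at 13.24 and 13.00 on the NOD.B10 MLN array and at 11.62 to 12.21 in the other 6 readings. The brightest probe of H2-Aa measured 10.86 to 11.74 in NOD and 10.32 to 11.97 in NOD.B10. It did not share the split of the second H2-Aa probe, which is described with the labels above, so that a strain difference of this gene depends on the probe. Cd74, the invariant chain that guides class II through the cell, ranged over 13.86 to 14.79 in NOD and 14.47 to 14.97 in NOD.B10.

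H2-Ea, the E alpha chain that NOD lacks, was well above background in 1 of 8 readings, the ILN of NOD.B10, at 6.79, and measured 6.01 to 6.48 in the other 7. On the BALB/c array, whose haplotype makes the chain, it stood at 10.22 in PLN and 10.50 in MLN. Neither strain compared here thus gave a signal near that of BALB/c. H2-DMb1, a chain of the peptide editor DM, was called lower in NOD on the MLN arrays. It measured 10.62 and 10.66 in NOD and 12.17 and 12.02 in NOD.B10 there, but 10.95 and 10.95 in NOD and 10.24 and 10.17 in NOD.B10 on the ILN arrays, so that the order of the strains turned. H2-DMa, its partner, stayed between 8.89 and 9.69 in all readings. Ciita, the master regulator of class II transcription, measured 9.03 to 9.72 in NOD and 9.43 to 10.22 in NOD.B10, with overlap.

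Class I genes held most of the MHC differences past 2-fold, and mostly on the MLN arrays. Of 19 measured class I genes, 10 were called lower in NOD in PLN on the MLN arrays and 0 higher, with a median of -1.02, where 2.49% of all genes were called in either direction, 1.06% higher and 1.43% lower. In MLN 9 of 19 were lower and 0 higher (median -0.81), beside 1.8% of all genes called, 0.757% higher and 1.05% lower. On the ILN arrays H2-Q5 was lower and H2-M3 and B2m were higher in PLN (median of the 19 -0.17). Of all genes 1.62% were called there, 0.976% higher and 0.644% lower. B2m, the light chain shared by class I molecules, is on the class I list but is no gene of the MHC cluster. In ILN H2-Q5 and H2-Bl were lower and H2-M3 higher (median -0.29), beside 1.65%, 1.17% higher and 0.481% lower. Relative to the median of all genes, the class I median in PLN on the MLN arrays was -1.26 to -0.79 under the scalings tried, and in PLN on the ILN arrays it was 0.00 with channel medians and -0.06 with Agilent's processed signals. Agilent's processed signals called 5 lower and 1 higher of the 19 in PLN on the MLN arrays, and 3 lower and 2 higher in MLN. The split of all genes called also moved with the scaling. In PLN it was 308 higher to 413 lower on the MLN arrays and 282 to 186 on the ILN arrays, but 236 to 675 and 707 to 82 with channel medians and 6226 to 904 and 3325 to 1542 with Agilent's processed signals. In MLN it was 219 to 303 and in ILN 338 to 139, but 158 to 474 and 948 to 51 with channel medians and 6057 to 2369 and 4799 to 3804 with Agilent's processed signals. Class I genes are alike in sequence, and a probe may read transcripts of several of them. The strains differ in their MHC, and a probe may also match the allele of a strain better than that of the other. Whether this moved the levels of MHC genes was not tested, because no probe sequences were at hand.

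H2-T23, which encodes the Qa-1 molecule that engages NK cell receptors, measured 12.18 (PLN) and 12.12 (MLN) for NOD and 14.78 and 14.53 for NOD.B10 on the arrays with MLN. On the ILN arrays NOD stood at 13.56 and 12.98 and NOD.B10 at 13.73 and 13.49. The PLN difference of -2.60 on the MLN arrays therefore shrank to -0.17 on the ILN arrays, and the NOD readings themselves lay 1.38 apart between the arrays in PLN. H2-Q7, a Qa-2 molecule, gave a difference of -2.24 on the MLN arrays, with 12.38 in NOD and 14.62 in NOD.B10, and of 0.22 on the ILN arrays, with 14.06 and 13.85. For H2-D1, a classical class I molecule present on most cells, PLN levels were 12.79 and 13.50 in NOD and 14.45 and 14.12 in NOD.B10, so the NOD readings were below both NOD.B10 readings, by 1.65 on the MLN arrays and 0.62 on the ILN arrays. H2-K1, the other classical gene, is not analysed here. H2-M3, which presents formylated bacterial peptides, went the other way on the ILN arrays, with PLN at 10.73 in NOD and 9.25 in NOD.B10, and not on the MLN arrays, with 9.37 and 10.16.

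Genes of class I peptide loading followed no common direction. Of 10 measured, 1 was called higher and 2 lower in NOD in PLN on the MLN arrays, and 0 on the ILN arrays. Of all genes 1.06% were higher and 1.43% lower in PLN on the MLN arrays, and 1.62% were called on the ILN arrays. The higher gene was Calr, a chaperone of newly made class I molecules, at 1.13, and the 2 lower genes were Tap1 and Tap2, the subunits of the peptide transporter. Tap1 measured 7.19 in NOD and 8.82 in NOD.B10 in PLN on the MLN arrays, and 8.55 and 9.52 on the ILN arrays, so that each NOD reading lay below both NOD.B10 readings. Tap2 measured 7.64 and 9.53, and then 9.21 and 8.62, which turned the order. The immunoproteasome subunits Psmb8 and Psmb9, which cut peptides for loading, stayed within 12.08 to 12.97 in PLN. Among 28 measured class III genes 0 were higher and 1 lower in PLN on the MLN arrays (median 0.10), beside 2.49% of all genes called. The lower gene was Vars, the valyl tRNA synthetase, at -1.38, and D17H6S56E-5 beside it, at -3.71, is not on that list.

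The NOD ILN array and the NOD.B10 MLN array shared scanner and day, and gave a further PLN comparison, chosen after the arrays had been examined. Over all genes 0.298% were called in it, which is fewer than in the PLN comparisons within a node. In the MHC interval, from Tapbp to H2-M3 in gene order, 8 of 139 genes were called (5.76%), 7 of them lower in NOD, against 74 genes on other chromosomes or unplaced (0.263%). Those lower were D17H6S56E-5 (-3.20), Vars (-1.46), H2-Q2 (-1.23), H2-T23 (-1.22), H2-DMb1 (-1.22), H2-T22 (-1.14) and H2-Q5 (-1.11), and Rps18, a ribosomal protein gene, was higher at 1.12. H2-M2, just beyond H2-M3, was lower as well, at -1.86. Of the class I list 5 of 19 were lower and 0 higher, with a median of -0.45. Relative to the median of all genes the list stood at -0.44, but at -0.08 with channel medians and at -0.03 with Agilent's processed signals. Channel medians called 2 lower and 1 higher of the 19, and Agilent's processed signals 2 lower and 3 higher. A place of the list below all genes thus depended on the scaling. D17H6S56E-5 stayed at -3.80 to -2.996 and Vars at -1.85 to -1.25 under each scaling tried. H2-T23 moved to -0.58 with channel medians and -0.20 with Agilent's processed signals, and H2-Q5 to -0.47 and -0.07. Neither was past 2-fold there. The interval count of this pair is given for the scaling over all 7 arrays only.

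In gene order the called genes of the MLN arrays lay in each of the K and class II, class III, D and Q, and T and M stretches. In PLN 3 of 25 genes of the K and class II stretch were called (12.0%), 4 of 54 in class III (7.41%), 6 of 25 in D and Q and 3 of 35 in T and M (8.57%), all 16 lower in NOD. Of the 100 measured genes before the interval 5 were called, and of the 100 after it also 5. On other chromosomes or unplaced 679 genes were called in this comparison (2.41%). On the ILN arrays 3 of 139 interval genes were called in PLN (2.16%), 1 lower and 2 higher, beside 445 genes on other chromosomes or unplaced (1.58%). The position was taken from the gene table's order only.

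**Figure D2:**
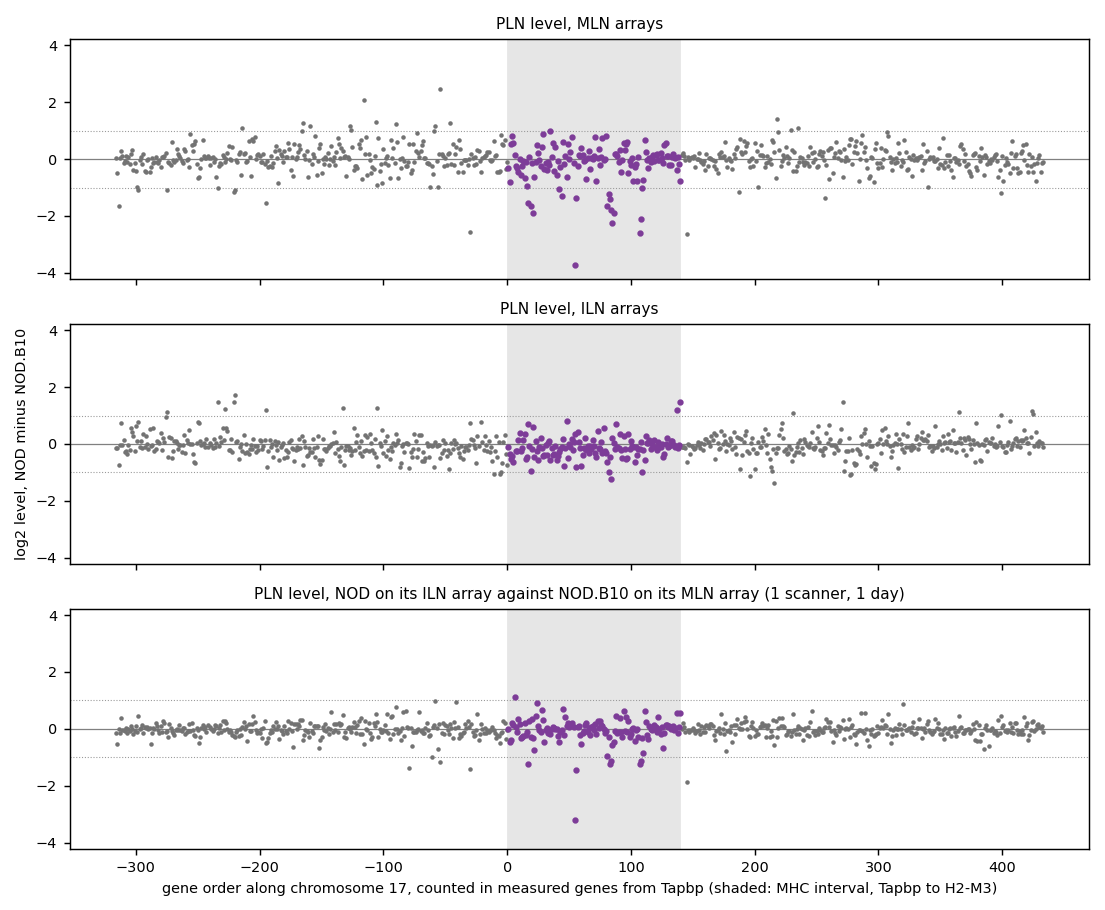
Difference of the log2 PLN level (NOD minus NOD.B10, vertical axis) of measured genes in their order along chromosome 17 (horizontal axis), for the MLN arrays, the ILN arrays and the pair that shared scanner and day, with the MHC interval shaded and dotted lines at 2-fold. All 16 interval genes past 2-fold on the MLN arrays were lower in NOD, and the pair of the same day had 8 past 2-fold in the interval.

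Few genes differed in level in all 4 strain comparisons of channels. Those past 2-fold with the same sign numbered 5 of 28855 (0.0173%), all lower in NOD. Where MLN and ILN levels both passed 2-fold, 60 genes had opposite signs and 9 the same sign. Besides H2-Q5, those past 2-fold in all 4 comparisons were Cd22, an inhibitory receptor of B cells, and Caly, a neuronal vesicle protein. The others were LOC544899, a predicted gene, and A_51_P179131, a probe with no gene name here. H2-Q5 was not past 2-fold in all 4 under each scaling. With channel medians it differed by -0.93 in PLN and in ILN on the ILN arrays. With Agilent's processed signals it differed by -0.654 to -0.575 over the 4 comparisons, or -1.135 to -0.765 relative to the median of all genes. Cd22 measured 8.53 and 8.75 on the NOD MLN array and 9.12 and 9.08 on the NOD ILN array, against 9.69 and 9.78 and then 10.64 and 10.40 in NOD.B10. Its second probe was dim, between 6.45 and 6.76, and showed no order. Caly was at 6.64 to 8.14 in NOD and at 8.05 or above in NOD.B10, so the strains overlapped across the arrays. Cd22 lies outside the MHC, and its values came from the same 4 arrays as the split of the MHC probes. With Agilent's processed signals, and relative to the median of all genes, Cd22 differed by -1.12 in PLN and -0.78 in MLN on the MLN arrays, and by -1.17 in PLN and -1.09 in ILN on the ILN arrays. In the pair that shared scanner and day Cd22 differed by -0.57, not past 2-fold. Relative to the median of all genes, it differed there by -0.28 with channel medians and by -0.10 with Agilent's processed signals. Its difference in this pair thus depended on the scaling.

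Differences in PLN over MLN and in PLN over ILN use PLN pools of the same 2 strains and are set side by side only. In PLN over MLN 207 of 28939 genes and unnamed probes were called (0.715%), 150 higher in NOD (0.518%) and 57 lower (0.197%). In PLN over ILN 16 of 28901 were called (0.0554%), 9 higher (0.0311%) and 7 lower (0.0242%). The median difference over all genes was 0.00 and -0.02. Centring each array on its median in place of loess moved these medians to -0.13 and -0.16, and the deposited values moved the first to 0.11. With median centring 97 genes were higher and 1628 lower against MLN and 36 and 2016 against ILN. With Agilent's log ratios the split was 2674 to 2736 and 1034 to 1057, and with the deposited values 4353 to 2629 and 2246 to 1573, so directions below are on the loess scale unless said otherwise. In the MHC interval 0 of 139 genes were called in either ratio, which is near these background shares.

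Pancreatic genes led the differences in PLN over MLN. Ins2, which encodes insulin, had a log2 ratio of 2.90 in NOD and 0.26 in NOD.B10, a difference of 2.63 or 6.21-fold. Its levels on the MLN arrays were 10.54 in PLN and 7.64 in MLN of NOD and 6.71 and 6.44 in NOD.B10. On the ILN arrays it was not well above background in PLN of either strain, and the ratio difference there was -0.26. The high insulin reading was thus found on 1 of the 2 NOD arrays, and PLN of NOD stood at 6.54 on the other. Ins1, the other insulin gene, had ratios of 1.46 and 0.03 against MLN, and Gcg, the glucagon gene, 0.81 and -0.08, both with NOD.B10 PLN not well above background on the MLN array. Over the 22 measured islet genes the median difference against MLN was 0.19, with 2 called higher, 0 lower and 17 above 0, and against ILN 0.05, with 0 called.

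Acinar cells make the digestive enzymes of the pancreas, and their genes split by brightness. Of 35 measured, 14 were called higher and 4 lower in NOD in PLN over MLN, with a median of 0.74. Rbpjl, an acinar transcription factor, had ratios of 2.69 in NOD and 0.01 in NOD.B10, with PLN at 10.06 and 7.61. Pnliprp2, a lipase, had 5.11 and 2.63, with MLN of NOD.B10 not well above background, and Pla2g1b, a phospholipase, 4.29 and 2.20. All 17 members whose PLN spot was saturated on neither MLN array were above 0, from 0.17 to 2.69 with a median of 1.16, and 13 of them were called. Among the 11 members saturated in PLN on both arrays 9 were below 0, with a median of -0.81 and a lowest value of -1.63 (Prss3, a trypsinogen). A saturated red spot holds the ratio down, so the differences of these 11 are no measure of PLN. Another 7 were saturated on the NOD array only, and their NOD ratios are lower bounds. With spots saturated in either channel left out the acinar median against MLN was 1.16, and with median centring 0.03. This split by saturation was made after the values were seen.

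**Figure D3:**
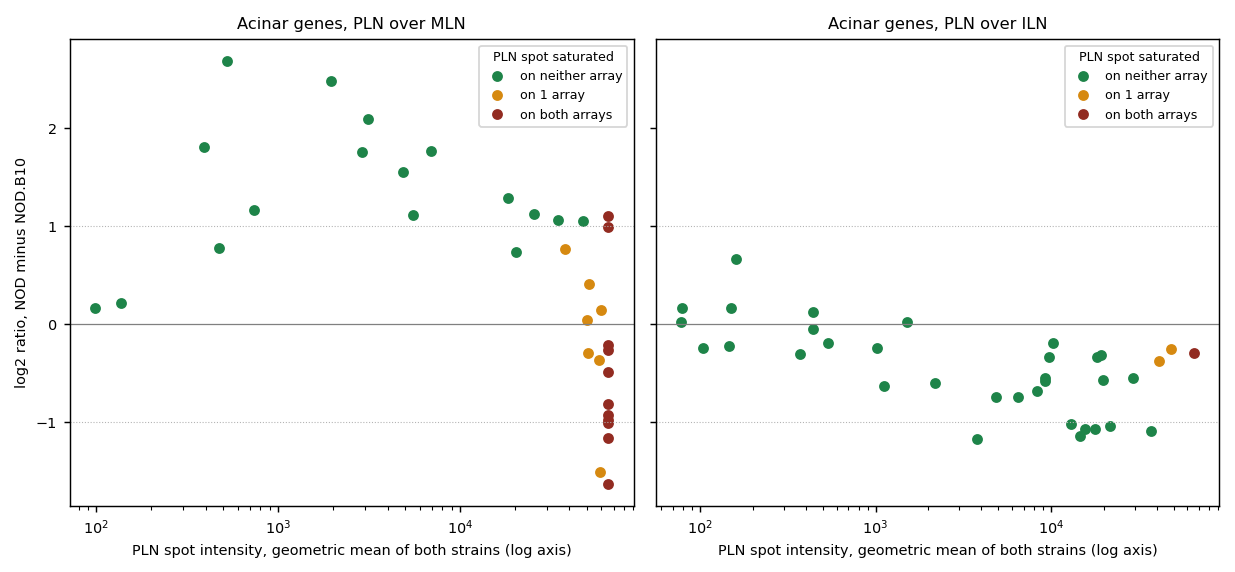
Difference of the log2 ratio (NOD minus NOD.B10, vertical axis) of acinar genes against the intensity of their PLN spots (horizontal log axis), in PLN over MLN (left) and PLN over ILN (right), coloured by the number of arrays on which the PLN spot was saturated. The 17 unsaturated genes of the MLN panel all lay above 0, and 26 of the 32 unsaturated genes of the ILN panel lay below 0.

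Against ILN the acinar genes went the other way. Of 35, 7 were called lower in NOD and 0 higher, with a median of -0.34, and 29 were below 0. Rnase1, a secreted ribonuclease, had ratios of 2.29 in NOD and 3.46 in NOD.B10, a difference of -1.17. Its levels on the ILN arrays were 11.91 in PLN and 9.62 in ILN of NOD and 12.35 and 8.89 in NOD.B10. Cel, a lipase activated by bile salts, had 3.44 and 4.58, and Pnlip, pancreatic lipase, 3.40 and 4.47. Clps, the colipase, Cpa1, a carboxypeptidase, and Prss2, a trypsinogen, differed by -1.06, -1.03 and -1.02. None of these was saturated on an ILN array. Pancreatic transcripts were present in all nodes of both strains, with acinar list medians of 13.14 to 15.76 in PLN, 9.05 in MLN of NOD.B10 and 9.16 and 9.61 in ILN. How much pancreatic tissue each pool of nodes held was not tested.

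Deaf1, a transcription factor that controls tissue antigens in lymph node stroma, gave different answers by probe. Its brighter probe had a log2 ratio over MLN of 3.31 in NOD and 0.77 in NOD.B10, with PLN at 10.49 and 7.85 and MLN at 7.18 and 7.08. Its other probe stood at 7.31 and 7.58 in PLN and 7.24 and 7.26 in MLN, so that NOD was not higher there. On the ILN arrays the brighter probe stood at 7.10 and 7.62 in PLN. The high reading of this probe in PLN of NOD was thus found on the MLN array only, like that of Ins2. Aire, the regulator of tissue antigens in the thymus, lay between 7.81 and 8.68 in all readings, with ratio differences of -0.05 and -0.13. Slc38a5 and Slc25a22, an amino acid and a mitochondrial glutamate carrier, were the other named genes that differed by over 2 against MLN, at 2.06 and 2.04, beside the kallikrein Klk1b4 at 2.44. Of these, Slc25a22 stood at 9.27 in PLN of NOD on the MLN array and at 7.03 to 7.64 in the other 7 readings.

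The 3 largest named differences with NOD lower in PLN over MLN each came with a low PLN reading of NOD on that array. Zc3h13, a part of the RNA methylation complex, had ratios of -1.28 in NOD and 0.27 in NOD.B10. Its level was 8.18 in PLN of NOD on that array and 9.46 to 9.95 in the other 7 readings, so that 1 reading set the difference. Rnf20, a ubiquitin ligase of histone H2B, likewise stood at 8.12 there and at 9.15 to 9.76 elsewhere, for a difference of -1.43, and its second probe had the opposite sign. Trim56, a ligase of innate sensing, differed by -1.35, with PLN of NOD at 7.61 and the other readings at 8.32 to 9.01. Against ILN these 3 genes differed by 0.12, 0.07 and -0.06.

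**Figure D4:**
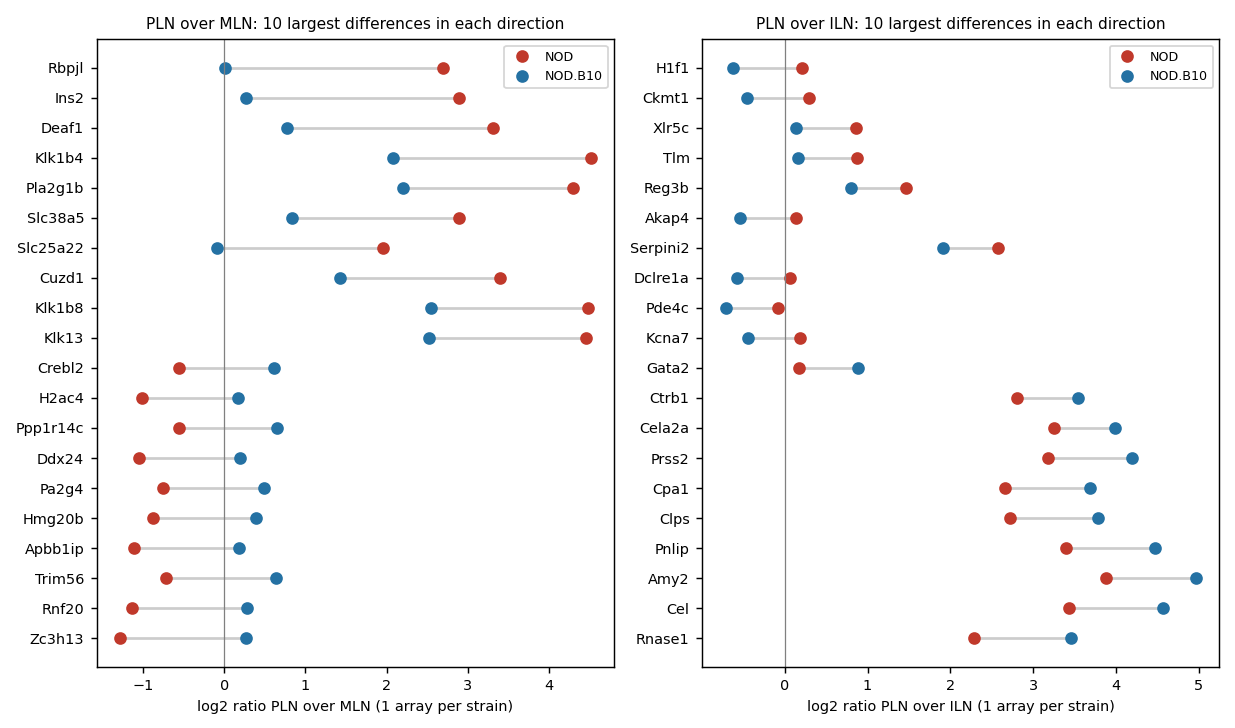
Log2 ratio of PLN over MLN (left) and over ILN (right) on the horizontal axis for the 10 genes with the largest difference in each direction, with NOD in red and NOD.B10 in blue and 1 array per strain. Against MLN the NOD ratios reached 4.51 (Klk1b4), and against ILN 9 pancreatic enzymes had lower ratios in NOD, 7 of them past 2-fold.

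Type I interferon genes, which cells switch on against viruses, lay mostly below 0 in PLN over MLN. Of 28 measured, 26 were below 0, with a median of -0.44 against 0.00 over all genes, and 2 were called lower and 0 higher. Isg15, a ubiquitin-like modifier, had ratios of -1.86 in NOD and -0.79 in NOD.B10, and Mx2, an antiviral GTPase, -1.69 and -0.65. The levels placed this in the MLN channel. Isg15 stood at 7.99 and 7.98 in PLN of the strains and at 9.86 and 8.77 in MLN, and Mx2 at 7.54 and 7.55 in PLN and 9.23 and 8.20 in MLN. Ifit1, which binds viral RNA, showed 6.87 and 6.78 in PLN and 8.44 and 7.36 in MLN. Against ILN the list median was -0.05 with 0 called, and the sign against MLN held under each processing tried, at -1.07 to -0.36. Interferon gamma genes had medians of -0.05 against MLN and 0.01 against ILN, with 0 of 18 called in either.

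Fat genes lay mostly above 0 in PLN over MLN, 23 of 25 with a median of 0.35, which turned to -0.07 with median centring. None passed 2-fold. Fasn, the fatty acid synthase, had ratios of 0.71 in NOD and -0.29 in NOD.B10, with PLN at 12.35 and 12.46 and MLN at 11.64 and 12.75, so that the difference of this gene lay in MLN. The list as a whole had a median level difference of 0.29 in PLN, with 2 of 25 called higher, and of -0.13 in MLN, with 1 called lower. Against ILN the list median was -0.08 with 8 of 25 above 0. Of 14 plasma cell genes 1 was called higher against MLN, Fkbp11, a chaperone of the secretory pathway, with PLN at 10.19 in NOD and 8.15 in NOD.B10. Derl3, of the same pathway, differed by 0.78, whereas Tnfrsf17, the survival receptor of plasma cells, differed by -0.65. Krt18 and Krt8, keratins of simple epithelia, differed by 1.30 and 1.32, with PLN of NOD at 10.46 and 9.30 on the MLN array. Their lists did not follow, with medians of 0.08 for mammary and skin epithelium (12 of 19 above 0) and -0.04 for gut epithelium, and 1 called in each.

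Lymphocyte lists lay nearer to 0. B cell genes had a median of -0.16 against MLN and -0.02 against ILN, and T cell genes of -0.165 and 0.01, with 0 called of 19 and of 28. Lef1, a factor of naive T cells, had the largest T cell difference against MLN, with ratios of -0.59 and 0.36. Median levels of the B cell list were 9.43 to 9.83 in PLN and those of the T cell list 9.69 to 9.93, so that both defining sets were present in every PLN pool. Lists of germinal centre, dendritic, cytotoxic, macrophage, neutrophil, endothelial, cell cycle and clock genes had medians within -0.13 to 0.06 against MLN and -0.18 to -0.01 against ILN, and 0 called. The 20 diabetes candidates outside the MHC, of which 18 were measured, had medians of -0.09 and -0.04 with 0 called. In these pools fewer cells of a type cannot be told apart from less RNA per cell.

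**Figure D5:**
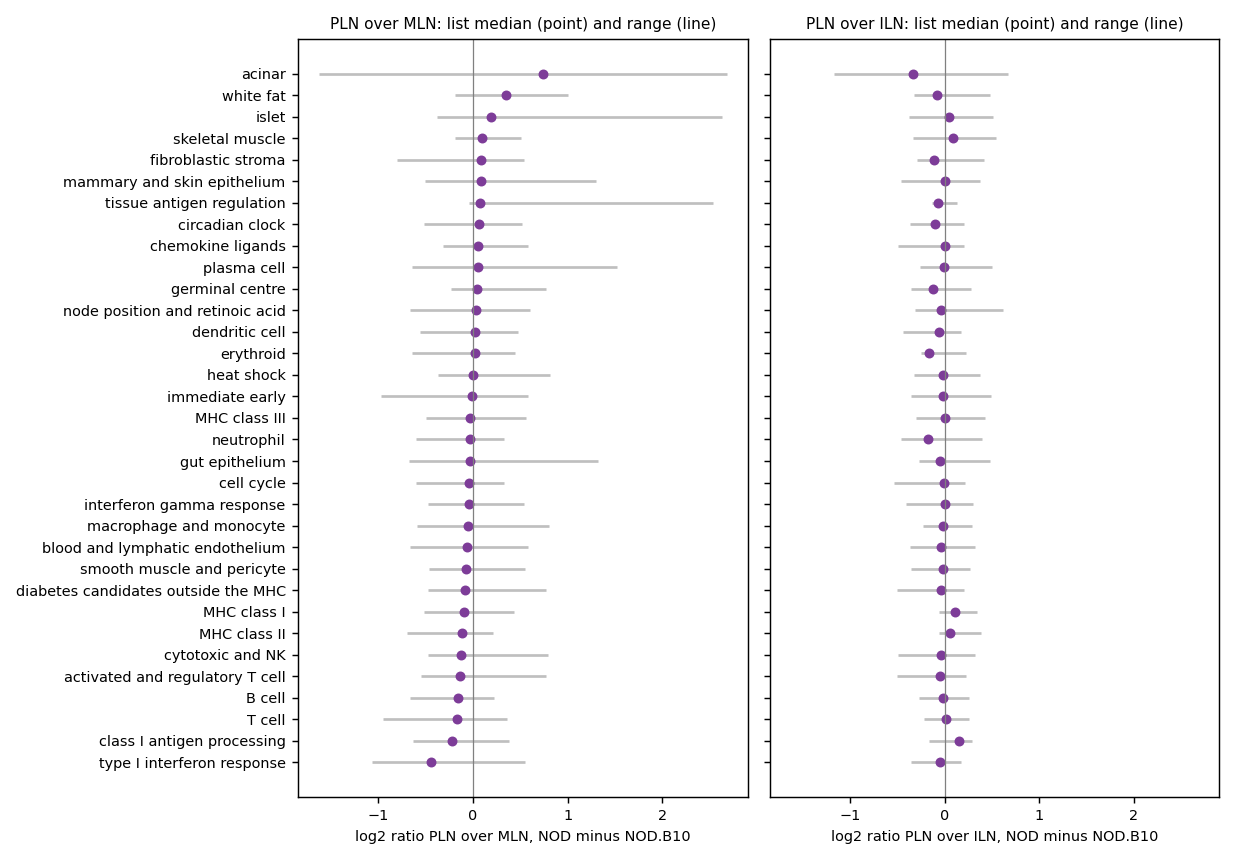
Median (point) and range (line) of the difference of the log2 ratio (NOD minus NOD.B10, horizontal axis) for the members of 33 gene lists (vertical axis), against MLN (left) and against ILN (right). The acinar list had a median of 0.74 against MLN and -0.34 against ILN, and the type I interferon list -0.44 and -0.05.

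Against ILN none of the 10 named genes with the largest positive differences passed 2-fold, and most were dim. H1f1, a linker histone, had ratios of 0.20 in NOD and -0.62 in NOD.B10, with levels of 6.88 and 6.67 in NOD and 7.10 and 7.72 in NOD.B10. Ckmt1, a mitochondrial creatine kinase, had 0.29 and -0.46. Both ratios of these genes on the NOD.B10 MLN array were below 0 too, at -0.79 and -0.61, and the Cy3 channel of the NOD.B10 arrays had the highest shares of probes well above background, 83.2% and 88.9%. What part this channel had in the difference was not tested. Tlm was brighter, at 8.99 in PLN and 8.12 in ILN on the NOD ILN array and at 6.97 to 7.30 in the other 6 readings. Among pancreatic genes Serpini2, a serpin of the pancreas, and Reg3b, a secreted lectin, differed by 0.66 and 0.67 against ILN, not past 2-fold, and were higher against MLN by 1.79 and 1.16.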

How the data were processed

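Total RNA of pooled lymph nodes was hybridised to Agilent 44k arrays, with PLN in Cy5 and the other node in Cy3 on every array and no dye swap. Per the file headers, spots were read with Feature Extraction 8.5.1.1, which gave spot and background intensity, processed signals (dye-normalized intensity) and the log10 ratio of red over green. The authors also deposited a value table of log2 ratios, whose exact steps are not given in the sources used here, and it served as an alternative. Marks for saturation, outliers and signal well above background came from the deposited scanner files.

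From spot mean and background median intensities, background was corrected by normexp with offset 50 in limma 3.58.1 (R 4.3.3), and each array was normalized by loess. Control and outlier spots had weight 0. Outlier spots and spots saturated in both channels were left out (0, 0, 10 and 16 spots of the latter on the NOD MLN, NOD.B10 MLN, NOD ILN and NOD.B10 ILN arrays), and spots of a probe were averaged. Levels were scaled over all 7 arrays (Aquantile). Probes well above background in at least 2 of the 8 readings were kept, 34982 of 41174, and the brightest probe stood for a gene. By accession 22072 probes had a gene symbol and by description 2485, and 16617 had none. The number of arrays limits the precision: with 1 array for each strain and node there is no test, and no p-value is given.

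Named genes were the 10 largest ratio differences in each direction that were well above background in all 4 readings of the comparison, saturated in none and of the same sign with median centring, Agilent's log ratio and the deposited value, the genes called in level in all 4 comparisons, up to 3 members of each list, MHC members, and a few genes fixed by name. D17H6S56E-5, Vars, Tla, Mela, Rps18 and members of lists beyond the first 3, were chosen after their values were seen. The members and lists were chosen with earlier results of these data known. Alternatives covered background, normalization, scaling, filter, saturation, the probe of a gene and the fold. The comparison within 1 scanner and day, the distances of the label check and the split by saturation were added after the data were examined. The scripts were tested on simulated data.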

Additional observations from a re-analysis of the deposited data

Results flagged for a closer look

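Amy2, a pancreatic amylase, differed between the strains in opposite directions by node. Its log2 ratio difference, NOD minus NOD.B10, was 1.11 in PLN over MLN and -1.09 in PLN over ILN. The PLN spot was saturated on both MLN arrays, so the first value is no measure of PLN, and no PLN spot of Amy2 was saturated on the ILN arrays. The difference between the nodes was not tested.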

How the results depend on the processing

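Several settings moved the counts past 2-fold, and the cause was not tested. With median centring 1725 genes were called in PLN over MLN and 2052 in PLN over ILN. With offset 0 the counts were 3765 and 1341 for these ratios, 2384 and 1618 for the PLN level on the MLN and ILN arrays, 4869 and 3493 for the MLN and ILN levels, and 16 for all 4 level comparisons together. Agilent's log ratio gave 5410 and 2091 and the deposited values 6982 and 3819 for the ratios. Agilent's processed signals gave 7130 and 4867 for PLN, 8426 for MLN, 8603 for ILN and 151 for all 4. Channel medians gave 789 for PLN on the ILN arrays, 999 for ILN and 3 for all 4. At 1.5-fold, a lower threshold, the counts were 1499 and 206 for the ratios, 2690 and 2270 for PLN, 3101 for MLN, 3096 for ILN and 72 for all 4. The pair within 1 scanner and day, chosen after the data were examined, gave 86 in place of the PLN count on the ILN arrays. In the MHC interval Agilent's processed signals gave 49 and 17 for PLN on the MLN and ILN arrays, 54 for MLN and 26 for ILN. Offset 0 gave 11 for PLN on the ILN arrays, 27 for MLN and 13 for ILN, and the mean of probes gave 2 for ILN. The other 61 counts lay within 1.5 times of their main count. Of single genes and list medians, 1067 values moved by less than the spread between spots of a probe and 391 by more. For genes near background, signal over background limits these values. No paired analysis was possible because each strain and node was measured once.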
